A study of Homo sapiens with 12 samples.

Results

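The RNA contacts of IGF2BP1 and IGF2BP3 were compared in wild-type HepG2 cells, a human liver cancer line that grows as epithelial-like cells. A pair of PAR-CLIP libraries represented each protein. Both IGF2BP3 libraries were those without the bio2 label, and the other 8 of the series' 12 libraries served only as an outside readout. They comprised 2 each of IGF2BP3 bio2, IGF2BP2, METTL1 and WDR4. All 12 came from untreated wild-type cells apart from 4-thiouridine labelling, and none was an input or mock library. A site was a stretch of RNA with a called cluster in both libraries of a protein, with an overlap of 1 nt or more on one strand. This gave 10603 IGF2BP1 sites and 4865 IGF2BP3 sites. Together they formed 10978 regions, of the 20095 merged regions listed by the 4 libraries and the 45174 listed by all 12. A region was called shared when sites of both proteins overlapped, and IGF2BP1-only or IGF2BP3-only otherwise.

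IGF2BP1 and IGF2BP3 are closely related RNA-binding proteins that are abundant in the embryo, low in most adult tissues and re-expressed in many tumours, liver cancer among them. Each carries a pair of RNA recognition motifs followed by KH domains, which read short C- and A-rich stretches, often with CA dinucleotides. They are known for binding 3' untranslated regions (3' UTRs), for controlling the stability and translation of the bound mRNA, and as readers of methylated RNA. IGF2, HMGA2 and other growth-related transcripts are their classical targets. PAR-CLIP places 4-thiouridine in RNA, crosslinks the bound protein with ultraviolet light and sequences the RNase T1 fragments that precipitate with it, so that a cluster marks a stretch of contacted RNA. The antibodies differ between proteins, which cannot be told apart from the proteins themselves.

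The following 30-nt stretches at the middle of single-copy 3' UTR sites are examples from each class, in hg38 coordinates and read 5' to 3'. Capitals mark CAUA, CAUC or CAUU, called the CAU element here. The examples do not show how often a class held the element. In the longer windows described below, 68.1% of shared, 51.7% of IGF2BP1-only and 67.3% of IGF2BP3-only single-copy 3' UTR sites held it. The first stretches belong to shared sites in the genes with the most shared sites.
IGF2 (chr11:2129410-2129439, minus strand): cuccccugggccacuaacCAUCcuggcccg
NFAT5 (chr16:69698096-69698125, plus strand): cauguuuucuucccuccaccuccaccccuu
LCOR (chr10:96955945-96955974, plus strand): cuguacaaacugggugagcacuacugCAUC
MBNL3 (chrX:132373326-132373355, minus strand): ucagccuuaucuccaaCAUAauuucccaau
PLBD2 (chr12:113388937-113388966, plus strand): gcuucuccuuccugaggguuugggaagguc

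The next stretches belong to IGF2BP1-only sites at which neither of the compared IGF2BP3 libraries had a cluster. Both bio2 libraries listed a cluster at the PEG10 site and neither did at the others. None of these 30-nt stretches holds the element.
APOB (chr2:21001451-21001480, minus strand): cuaaacuugggggaggaggaacaaauaaau
MFSD4B (chr6:111269713-111269742, plus strand): gcagaaaaucucaaaaucuacucuggaaaa
HIPK2 (chr7:139569805-139569834, minus strand): uuucucuuuaauauuuaaacuuauucucuc
GNL3L (chrX:54563292-54563321, plus strand): uacuuaugauggggcuacuuccugguaaac
PEG10 (chr7:94665710-94665739, plus strand): gcccucaaaauuuauuccuguucagcuucu

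The last set belongs to IGF2BP3-only sites at which neither IGF2BP1 library had a cluster while both bio2 libraries did. The element was present in each 3' UTR stretch, up to 4 times in CHMP3. The stretches of ALB and FBXO5, which lie in introns, were chosen after their values were seen.
CHMP3 (chr2:86504945-86504974, minus strand): ugCAUCAUAaccaaCAUUcacuCAUCuggg
FKBP10 (chr17:41822702-41822731, plus strand): ucccccacCAUAccuccccuccaCAUCacu
PHF3 (chr6:63713875-63713904, plus strand): ugcuCAUCAUCccuucuuCAUAccaacggu
TPP1 (chr11:6613705-6613734, minus strand): uCAUCuuuucaccccaccuucaaucaacaa
ALB intron (chr4:73411203-73411232, plus strand): uccuacCAUCuacaccaccaaaaucaacca
FBXO5 intron (chr6:152980451-152980480, minus strand): cuucuucaacuauaauuuucaauaaccucc

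The first question was how far the 2 proteins occupied the same RNA stretches. Nearly all IGF2BP3 sites lay on IGF2BP1 sites, while most IGF2BP1 sites had no IGF2BP3 site. Of the 4865 IGF2BP3 sites, 4485 overlapped an IGF2BP1 site (92.2%, 95% Wilson interval 91.4% to 92.9%). Of the 10603 IGF2BP1 sites, 4433 overlapped an IGF2BP3 site (41.8%, 40.9% to 42.8%). The regions were therefore 4428 shared, 6170 IGF2BP1-only and 380 IGF2BP3-only. Without IGF2BP1 replicate 1 or 2 the IGF2BP1-only sites numbered 11032 and 9923, and without IGF2BP3 replicate 1 or 2 the IGF2BP3-only sites numbered 1167 and 1033. Without IGF2BP1 replicate 1 the IGF2BP3-only sites numbered 190. These intervals, like all intervals below, cover counting error only.

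The lists differed in length before any comparison, and this moves with the one-sided counts. The IGF2BP1 libraries listed 14502 and 15701 clusters, and the IGF2BP3 libraries 6467 and 6831. Sequencing depth and the strength of a cluster are unknown, since the files hold intervals without read counts or scores. A missing cluster was common even between libraries of one protein: 8764 of 19367 merged IGF2BP1 regions and 3494 of 8359 merged IGF2BP3 regions were listed in 1 library alone. The part of list length in the one-sided classes was not tested.

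Single clusters of the other protein reduced the one-sided sets further. Of the 380 IGF2BP3-only sites, 279 had a cluster in 1 IGF2BP1 library and 101 had none (26.6%, 22.4% to 31.2%). Of the 6170 IGF2BP1-only sites, 2007 had a cluster in 1 IGF2BP3 library, 3 had separate clusters in both, and 4160 had none (67.4%, 66.2% to 68.6%). Only 2.08% of all IGF2BP3 sites, against 39.2% of IGF2BP1 sites, were thus free of any cluster of the other protein in these 4 libraries.

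Where sites were shared, the called stretches usually began and ended at the same base. Among 4375 regions with 1 site of each protein, the 5' end coincided in 81.8%, the 3' end in 69.8% and both ends in 59.7%. The same measure between the IGF2BP1 libraries, over 10420 sites, was 78.9%, 64.9% and 52.7%. Between the IGF2BP3 libraries, over 4806 sites, it was 85.2%, 69.1% and 59.4%. Since a site merges clusters of both libraries, single libraries of different proteins were also compared, over 5500 to 5973 overlapping clusters a pair. There the 5' end coincided in 79.0% to 80.3%, the 3' end in 63.9% to 64.8% and both ends in 52.1% to 53.6%. Compared library with library, common ends were thus about as frequent between the proteins as between the IGF2BP1 libraries, and less frequent than between the IGF2BP3 libraries. The median distance between midpoints was 0 nt. RNase T1 cuts after G, and G stood just before the first base of 93.3% to 94.7% of clusters.

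One-sided sites seldom adjoined a site of the other protein. Of the IGF2BP3-only sites, 13.4% (10.4% to 17.2%) lay within 100 nt of an IGF2BP1 site and 26.6% within 1000 nt. For IGF2BP1-only sites and their nearest IGF2BP3 site the shares were 7.81% (7.17% to 8.51%) and 26.3%. Median widths were 39 nt for IGF2BP3-only, 42 nt for IGF2BP1-only and 45 nt for shared sites. A shared region was measured across the sites of both proteins and a one-sided site across those of a single protein. Shared widths are therefore larger by construction, and no difference in the sites themselves can be read from them.

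The second question was where in transcripts the classes lay, by the midpoint of the site on its strand. Shared and IGF2BP1-only sites were most often in 3' UTRs, whereas IGF2BP3-only sites were most often in introns. The 3' UTR held 46.8% of shared sites (45.4% to 48.3%), 45.6% of IGF2BP1-only sites (44.4% to 46.9%) and 17.9% of IGF2BP3-only sites (14.4% to 22.1%). The difference between the one-sided classes was -27.7 percentage points, with a 95% Newcombe interval of -31.5 to -23.4. Introns held 17.4% of shared, 21.1% of IGF2BP1-only and 40.5% of IGF2BP3-only sites, and the one-sided classes differed by 19.4 points (14.5 to 24.5).

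Coding sequence held 14.1% of shared, 10.3% of IGF2BP1-only and 15.5% of IGF2BP3-only sites. The IGF2BP3-only share was 5.25 points above the IGF2BP1-only share (1.86 to 9.30) and 1.43 points above the shared class, an interval of -2.03 to 5.54 that includes 0. Other exons, largely of noncoding transcripts, held 6.46%, 4.88% and 7.63% of the classes. The mitochondrial chromosome held 86 shared, 26 IGF2BP1-only and no IGF2BP3-only sites, and 0 of 380 allows a share of up to 0.789% (3 counts of the total).

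Seen from the side of IGF2BP3, 2084 of its 2152 3' UTR sites were shared (96.8%, 96.0% to 97.5%). In coding sequence 626 of 685 were shared (91.4%, 89.0% to 93.3%), and in introns 775 of 929 (83.4%, 80.9% to 85.7%). The intervals of the 3 regions did not overlap.

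**Figure D1:**
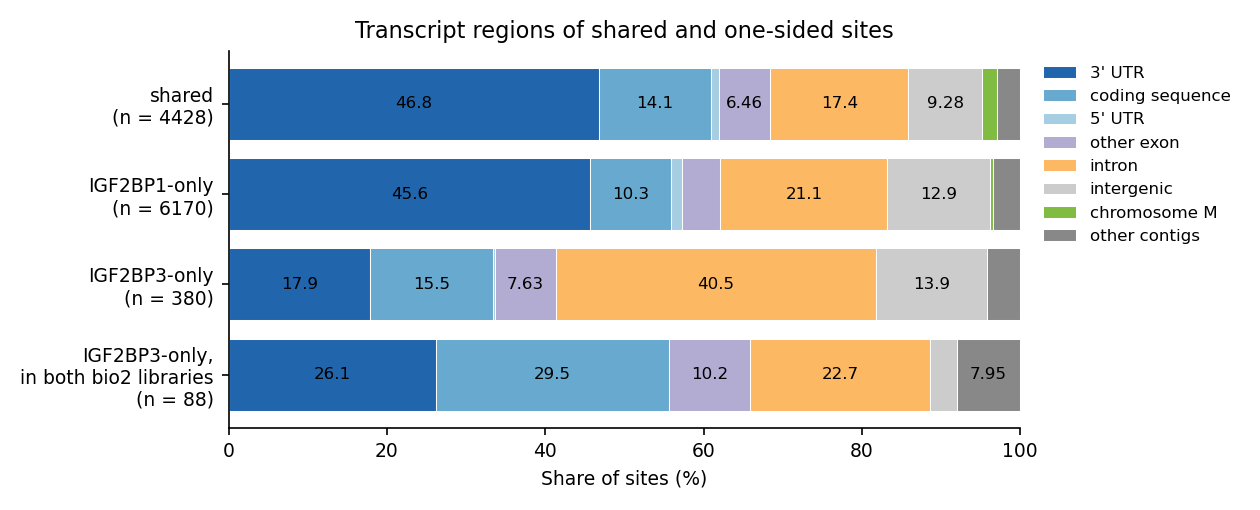
Share of sites (%, x axis) in each transcript region for shared, IGF2BP1-only and IGF2BP3-only sites, and for the 88 IGF2BP3-only sites with a cluster in both bio2 libraries. Introns hold 40.5% of the IGF2BP3-only sites and 22.7% of those found in both bio2 libraries, while the 3' UTR holds over 45% of the shared and of the IGF2BP1-only sites.

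The intron-rich makeup held in each subset of IGF2BP3-only sites by IGF2BP1 clusters. Introns held 43 of the 101 sites with no IGF2BP1 cluster (42.6%, 33.4% to 52.3%) and 111 of the 279 with 1 (39.8%, 34.2% to 45.6%). The intron share was lower among the 88 IGF2BP3-only sites that both bio2 libraries also listed. There introns held 20 sites (22.7%, 15.2% to 32.5%), coding sequence 26 (29.5%, 21.0% to 39.8%) and the 3' UTR 23 (26.1%, 18.1% to 36.2%). The bio2 libraries had fewer intron clusters in general, at 15.6% of clusters in each. Of the sites that both bio2 libraries listed, introns held 140 of 1640 shared and 107 of 616 IGF2BP1-only sites.

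The 154 IGF2BP3-only intron sites were spread over 136 genes, of which 115 were protein-coding and 19 lncRNA genes, and 127 genes had a single such site. They lay deep in introns, with a median of 2429 nt to the nearest exon of the gene, against 2545 nt for shared and 2503 nt for IGF2BP1-only intron sites. Only 2 of 154 lay within 100 nt of an exon. In 78 of the 154 cases another IGF2BP1 or shared site lay in an intron of the same gene.

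JMJD1C, a chromatin protein of the JmjC family, carried 3 IGF2BP3-only intron sites, with no IGF2BP1 cluster at any of them and none in both bio2 libraries. ALB, which encodes serum albumin, had 1 intron site with no IGF2BP1 cluster that both bio2 libraries listed. ADH4, a liver alcohol dehydrogenase, and IGF2BP2 itself each had 1 intron site in both bio2 libraries, each with a cluster in an IGF2BP1 library. A pair of unnamed lncRNA genes on chromosome 21, ENSG00000280441 and ENSG00000278996, held 6 and 3 IGF2BP3-only intron sites together with 34 and 22 shared ones. The annotation places 1 or more ribosomal RNA genes inside both on the same strand, and no site of these 9 had a single-copy centre, so their place in the genome is uncertain. Without the intron sites of both genes, introns held 39.1% of 371 IGF2BP3-only sites (34.3% to 44.1%) and 20.1% of 6090 IGF2BP1-only sites, a difference of 18.99 points (14.05 to 24.1). All 9 were in both bio2 libraries, and without them introns held 11 of the 79 remaining IGF2BP3-only sites found there (13.9%, 7.96% to 23.2%). The same removal left introns with 16.4% of all shared and 20.1% of all IGF2BP1-only sites. Those shares were not limited to sites in both bio2 libraries, so they cannot be set against the 13.9%. This removal was chosen after the data were seen.

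Repeated sequence was not spread evenly. The central 20 nt occurred once in the genome for 69.6% of shared (68.3% to 71.0%), 59.4% of IGF2BP1-only (58.1% to 60.6%) and 68.7% of IGF2BP3-only sites (63.9% to 73.1%). Reads were allowed up to several genomic places by the mapping, so one-sided calls at repeated sequence are less certain than at single-copy sites.

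Within 3' UTRs the classes differed little in place. On a scale with the stop codon at 0 and the end of the transcript at 1, the median position was 0.404 for 1989 shared, 0.435 for 2680 IGF2BP1-only and 0.345 for 67 IGF2BP3-only sites. The middle 50% of sites spanned 0.199 to 0.682, 0.218 to 0.668 and 0.130 to 0.570, so the classes overlapped widely. The 3' UTRs that carried the sites had median lengths of 3226, 3548 and 2501 nt.

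The third question was whether the classes recurred in the 8 libraries that had no part in defining them. IGF2BP3-only sites were found again in the bio2 libraries more often than IGF2BP1-only sites, and in the IGF2BP2 and METTL1 libraries less often. In bio2 replicates 1 and 2, 27.6% and 26.8% of IGF2BP3-only sites had a cluster, against 14.5% and 13.3% of IGF2BP1-only sites. The differences were 13.2 points (8.81 to 17.9) and 13.6 points (9.26 to 18.3). Shared sites recurred most, at 43.8% and 42.4%, and still more often in the IGF2BP2 libraries, at 47.9% and 57.3%. Shared regions are wider by construction, and the shares do not correct for width. The differences between the one-sided classes moved when a side was reduced to 1 library, so that its sites needed a cluster in that library alone. They were 5.63 and 5.09 points without IGF2BP3 replicate 1, and 6.99 and 7.16 without IGF2BP3 replicate 2. Without IGF2BP1 replicate 1 they were 13.5 and 14.3 points, and without IGF2BP1 replicate 2 they were 19.4 and 18.9.

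In the IGF2BP2 libraries the order of the one-sided classes was the opposite. The shares were 10.8% and 14.7% of IGF2BP3-only sites against 19.04% and 29.3% of IGF2BP1-only sites, with differences of -8.25 points (-11.2 to -4.60) and -14.5 points (-17.9 to -10.4). The METTL1 libraries held 8.16% and 9.47% of IGF2BP3-only against 13.4% and 16.4% of IGF2BP1-only sites. In the WDR4 libraries the shares were 12.6% and 12.4% against 17.1% and 14.5%, and the second difference, -2.10 points, had an interval of -5.18 to 1.68 that includes 0. Each library is 1 value, and the intervals treat sites as independent, so they are too narrow as a measure of the proteins.

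**Figure D2:**
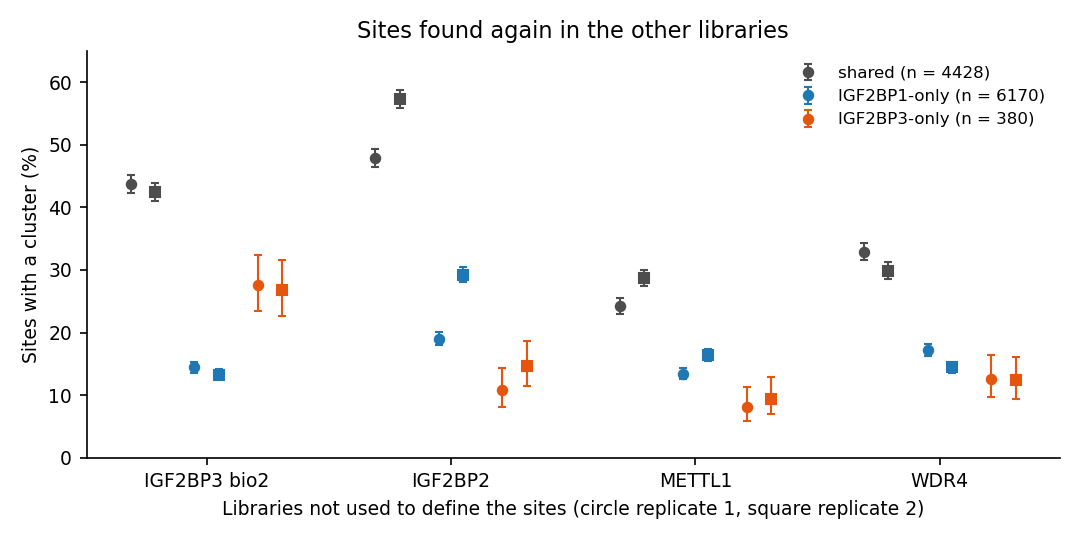
Share of sites (%, y axis) with a cluster in each library that was not used to define the sites, for shared, IGF2BP1-only and IGF2BP3-only sites, with 95% Wilson intervals as bars and replicate 1 and 2 as circle and square. Shared sites lie highest in all 8 libraries, and IGF2BP3-only sites lie above IGF2BP1-only sites in both bio2 libraries alone.

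Single-copy sites gave the same order in the bio2, IGF2BP2 and METTL1 libraries. There 25.7% and 23.8% of 261 IGF2BP3-only sites against 15.8% and 14.1% of 3663 IGF2BP1-only sites had a bio2 cluster. In the WDR4 libraries the single-copy differences were -2.68 points (-5.74 to 1.502) and 0.651 points (-2.51 to 4.92). Recurrence also varied with region. In the bio2 libraries a mean of 52.5% ± 2.40 (SD, n = 2 libraries) of IGF2BP3-only coding sites, 38.2% ± 0 of those in 3' UTRs and 16.6% ± 1.38 of those in introns had a cluster. For IGF2BP1-only sites the means were 21.8% ± 1.12, 13.7% ± 1.13 and 10.2% ± 0.0542.

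The narrowest set combined both rules: 25 IGF2BP3-only sites had no IGF2BP1 cluster and a cluster in both bio2 libraries. Of these, 15 were in no IGF2BP2, METTL1 or WDR4 library either, 13 had a single-copy centre and 15 held a CAU element. Both of the latter shares were below those of all 380 IGF2BP3-only sites, of which 68.7% had a single-copy centre and 73.2% the element. The 3' UTR sites were in CHMP3 (a subunit of the membrane-cutting ESCRT-III complex), FKBP10 (a collagen chaperone of the endoplasmic reticulum), NICN1, PHF3 and TPP1 (a lysosomal peptidase). The coding sites were in NDUFAF3 (assembly of respiratory complex I), PHACTR4, SLC26A6 and SLC4A2 (both anion exchangers), TMEM131 and UBR4 (a ubiquitin ligase). The sites of NICN1, PHACTR4, SLC4A2 and UBR4 were not single-copy. Exons outside annotated coding transcripts included MATN3, the lncRNA PURPL and the pseudogene MTCO2P2, the last at a repeated sequence and in 2 METTL1 or WDR4 libraries. Of the 9 intron sites, 5 lay in the chromosome 21 genes ENSG00000278996 and ENSG00000280441 that hold ribosomal RNA genes, and the others in A2M (a plasma protease inhibitor), ALB, FBXO5 (an inhibitor of the anaphase-promoting complex) and the lncRNA gene ENSG00000288938.

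The fourth question was which sequences the classes held. Each site was read in a 41-nt window around its midpoint, with windows of the same length 100 nt up- and downstream in the same region as the measured background. IGF2BP1-only sites held the CAU element least and IGF2BP3-only sites most. It was present in 47.1% of IGF2BP1-only windows (45.8% to 48.3%), 66.0% of shared (64.6% to 67.4%) and 73.2% of IGF2BP3-only windows (68.5% to 77.4%). The one-sided classes differed by 26.1 points (21.3 to 30.5), and the shared class stood 18.98 points above the IGF2BP1-only class (17.1 to 20.8).

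The order of shared over IGF2BP1-only sites was present in every region examined. In 3' UTRs the element was in 64.4% of shared, 44.5% of IGF2BP1-only and 69.1% of IGF2BP3-only windows, against 39.9%, 35.8% and 37.3% of their flanking windows. In coding sequence the shares were 72.6%, 54.1% and 71.2%, and in introns 72.2%, 53.1% and 78.6%. The flanks of intron sites already differed, with the element in 47.4%, 40.3% and 51.0% of their windows. IGF2BP3-only and shared sites were not separated within a region: the difference was 4.70 points in 3' UTRs (-7.23 to 14.6), -1.41 in coding sequence (-14.4 to 9.21) and 6.42 in introns (-1.34 to 13.03).

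Restriction to single-copy sites narrowed the gap. In 3' UTRs the element was then in 68.1% of 1573 shared, 51.7% of 1861 IGF2BP1-only and 67.3% of 52 IGF2BP3-only windows. The one-sided classes differed by 15.6 points (1.88 to 27.0). In introns the shares were 81.0%, 70.7% and 84.6%. IGF2BP3-only sites also held more copies: 20.3% of all their windows had 3 or more elements, against 12.9% of shared and 4.93% of IGF2BP1-only windows.

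**Figure D3:**
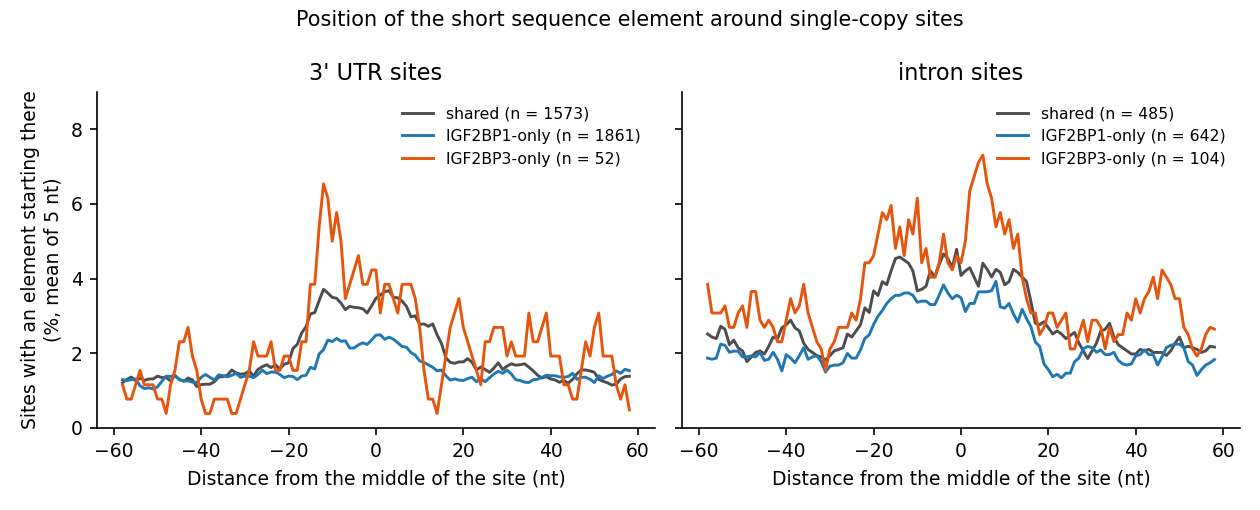
Share of single-copy sites (%, y axis, mean over 5 nt) with a CAU element (CAUA, CAUC or CAUU) that starts at each distance in nt from the middle of the site (x axis), for 3' UTR sites on the left and intron sites on the right. All classes rise within about 20 nt of the middle, least for IGF2BP1-only 3' UTR sites, and the IGF2BP3-only line is uneven because it rests on 52 and 104 sites.

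Along the sequence the element gathered at the site itself. Within 10 nt of the middle of single-copy 3' UTR sites a mean of 3.31% of shared, 2.25% of IGF2BP1-only and 3.96% of IGF2BP3-only sites had an element starting at a given base. Beyond 40 nt the means were 1.30%, 1.32% and 1.41%. The ratio of inner to outer level was thus 2.53, 1.70 and 2.81. At single-copy intron sites the ratios were 1.88, 1.80 and 1.69, with outer levels of 2.21%, 1.94% and 3.16%, so that IGF2BP3-only intron sites had the lowest ratio and the highest outer level.

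Base composition differed mainly in G. In single-copy 3' UTR windows G made up 12.4% of bases at IGF2BP1-only sites, 7.57% at shared and 7.50% at IGF2BP3-only sites, while U was at 31.9%, 31.8% and 30.4%. Flanking 3' UTR windows, single-copy or not, held 20.3% to 21.2% G. RNase T1 cuts after G, and the part of this in the G share of the windows was not tested.

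Among all 4-base words in single-copy 3' UTR windows, CAUC had the widest gap between shared and IGF2BP1-only sites, at 37.4% against 24.4% of windows. ACUC followed at 49.9% against 38.4% and UCAC at 35.9% against 25.7%. The words with the widest gaps towards IGF2BP1-only sites held G: CCUG was in 23.5% of IGF2BP1-only against 14.2% of shared windows, and CUGG in 18.9% against 10.6%. In introns the leading word was AAAC, in 46.4% of shared and 33.0% of IGF2BP1-only windows. These words were picked for their gaps and are given without a test.

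Over all sites, other elements set the one-sided classes apart by fewer percentage points than the CAU element. GGAC, the core of the common m6A consensus, was in 5.82% of IGF2BP1-only (5.26% to 6.43%), 4.201% of shared (3.65% to 4.83%) and 3.68% of IGF2BP3-only windows (2.21% to 6.09%). In coding sequence it was in 11.8% of IGF2BP1-only (9.54% to 14.6%) and 4.65% of shared windows (3.26% to 6.59%). The bipartite element described for IGF2BP3 is GGCA followed by CA after 9 to 25 nt, or CGGC followed by CA after 15 to 25 nt. It was in 5.53% of IGF2BP1-only, 3.27% of shared and 3.68% of IGF2BP3-only windows. In 3' UTRs alone it was in 6.29% of IGF2BP1-only (5.45% to 7.25%), 3.66% of shared (2.94% to 4.56%) and 7.35% of IGF2BP3-only windows (3.18% to 16.1%), the last being 5 of 68 sites, against 6.87%, 5.94% and 1.59% of their flanking windows. The dinucleotide repeat ACAC was in 15.5%, 23.6% and 30% of windows of IGF2BP1-only, shared and IGF2BP3-only sites.

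The same measures were taken over every cluster of a library, so that the library was the unit of a test. The CAU element was in 51.0% and 53.9% of the windows of IGF2BP1 replicates 1 and 2, and in 66.1% and 64.1% of those of IGF2BP3. Both IGF2BP3 values lay above both IGF2BP1 values, by 12.6 points in the mean. The two-sided exact permutation test gave p = 0.333 for 2 against 2 libraries, the smallest p that its 6 arrangements allow, and 0.533 after adjustment over 8 measures. No comparison of this size can therefore reach 0.05, and the same adjusted p holds for the other 4 measures without overlap.

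Those 4 were the 3' UTR share, the coding share, GGAC and the bipartite element. The 3' UTR share was 42.6% and 42.9% for IGF2BP1 against 41.5% and 41.5% for IGF2BP3. The coding share was 10.9% and 11.9% against 13.5% and 12.9%. GGAC was in 5.85% and 5.34% against 4.64% and 4.35% of windows, and the bipartite element in 5.42% and 4.87% against 3.80% and 3.70%. Groups overlapped for the intron share (22.3% and 21.8% against 21.9% and 21.0%), the median width (42 and 40 against 41 and 41 nt) and the U content (28.3% and 28.9% against 28.8% and 28.8%).

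The bio2 libraries resembled the IGF2BP3 libraries in the CAU element, at 66.5% and 67.02%, and differed in other measures. Their 3' UTR share was 35.5% in both, their coding share 21.0% and 19.9%, and their GGAC share 7.40% and 7.11%, which lay above the IGF2BP1 libraries rather than below them. The order of GGAC between the proteins thus depended on which IGF2BP3 libraries were used.

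The fifth question was which genes the sites marked. Of 20007 protein-coding genes, 3145 had a site in an exon. Both proteins had sites in 1864 of them (59.3%), IGF2BP1 alone in 1213 (38.6%) and IGF2BP3 alone in 68 (2.16%). The last count was 25 without IGF2BP1 replicate 1, and 173 and 170 without IGF2BP3 replicate 1 and 2. Without IGF2BP1 replicate 1 there were 1899 genes of IGF2BP1 alone. In 1850 of the 1864 genes at least 1 site was shared, and in 14 the proteins had separate sites only. Of the 1932 genes with an IGF2BP3 site, 96.5% had an IGF2BP1 site. Of the 3077 genes with an IGF2BP1 site, 60.6% had an IGF2BP3 site.

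Genes of both proteins had a median of 2 exonic sites, and genes of a single protein 1. Their 3' UTRs were longer than those of all protein-coding genes, at a median of 2545 nt for both, 2180 nt for IGF2BP1 only and 1974 nt for IGF2BP3 only, against 1029 nt. The middle 50% of lengths spanned 1317 to 4260, 1144 to 3805 and 754 to 4024 nt, so the 3 gene classes overlapped. RNA levels were not used here, and a site requires an expressed transcript, so level and binding cannot be told apart.

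IGF2, the fetal growth factor after which the family is named, had the most shared sites, 25, of which 20 lay in its 3' UTR of 3873 nt, and 7 IGF2BP1-only sites. Both bio2 libraries listed 12 of the 25. Of its 32 exonic sites, 8 lay in more than 1 annotated gene. APOB, the structural protein of very low density lipoprotein, had 19 shared and 20 IGF2BP1-only sites, and 18 of its shared sites lay in coding sequence. Both bio2 libraries listed 17 of the 19.

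The genes that followed carried their shared sites almost wholly in the 3' UTR. NFAT5, the transcription factor of osmotic stress, had 11 shared sites, 10 of them there. LCOR, a nuclear receptor corepressor, and PLBD2, a lysosomal protein, had 10 each, all there, and MBNL3, a splicing regulator, had 9 of 10. MDM2, a ubiquitin ligase, had 9 and HMGA2, a fetal chromatin protein and let-7 target, had 8, of which 6 lay in the 3' UTR. None of these 8 genes, picked for their shared sites, had an IGF2BP3-only exonic site. Such sites were few everywhere, at 128 of the 6404 exonic sites of all protein-coding genes. Each of the 8 had 1 to 20 IGF2BP1-only sites, a class with 3531 exonic sites in all. In the HMGA2 3' UTR the IGF2BP1-only sites at 1111, 1566 and 2301 nt from the stop codon lay among the shared sites, which spanned 1055 to 2534 nt, and another at 473 nt lay upstream of them. The sites at 1566 and 2301 nt each had a cluster in 1 of the compared IGF2BP3 libraries. Both bio2 libraries listed the site at 1566 nt, and 1 of them the site at 473 nt. Only the site at 1111 nt had no IGF2BP3 cluster of either kind.

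**Figure D4:**
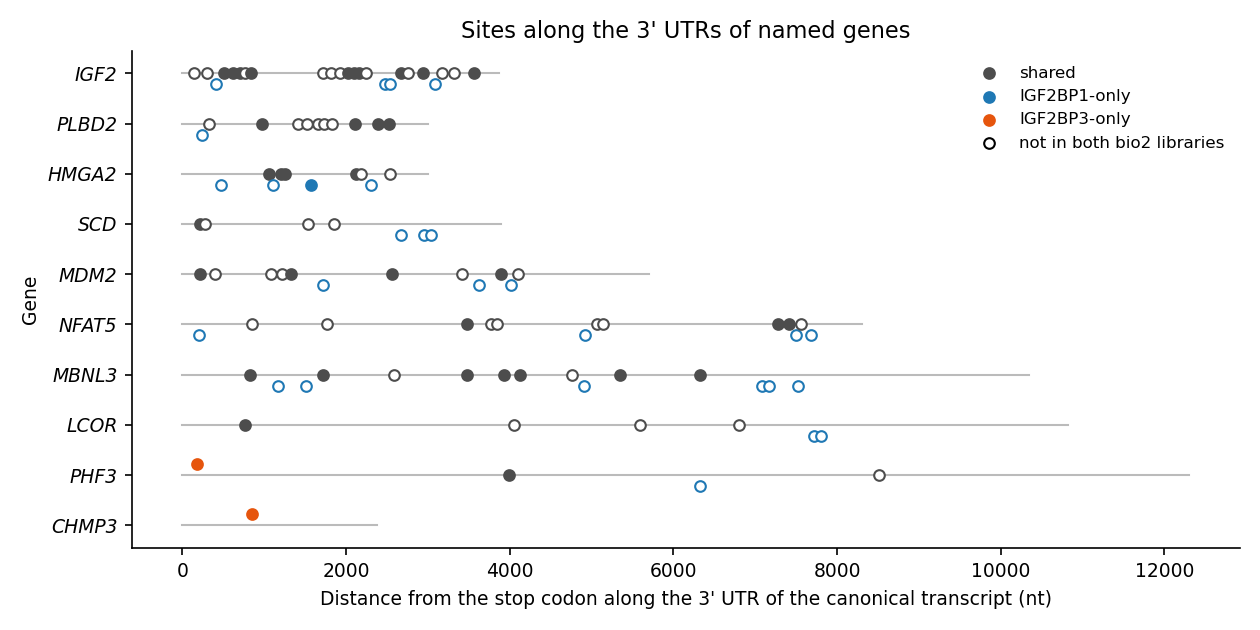
Sites along the 3' UTR of the canonical transcript of named genes, as distance from the stop codon in nt (x axis), with shared sites in grey on the line, IGF2BP1-only in blue below it and IGF2BP3-only in orange above it. Filled points had a cluster in both bio2 libraries, as in the IGF2BP3-only sites of CHMP3 and PHF3. Sites outside the canonical 3' UTR are not drawn.

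Genes with IGF2BP1 sites alone were led by FASN, fatty acid synthase, with 8 sites, 7 of them coding, and by SLC7A5, a transporter of large neutral amino acids, and TMEM170A with 7 each. At 6 of the 8 FASN sites and 6 of the 7 SLC7A5 sites no IGF2BP3 library had a cluster, and both bio2 libraries listed 1 site in each gene. At TMEM170A only 3 of the 7 sites had no IGF2BP3 cluster. C6orf62, RNF24, RNF44, ROCK2 and TMEM192 followed with 5. Sites without an IGF2BP3 cluster numbered 4 in C6orf62, 4 in RNF44, 3 in TMEM192 and 1 in RNF24. ROCK2 is a kinase that regulates the actin cytoskeleton, and 4 of its 5 sites had no IGF2BP3 cluster. Over all 1213 genes, 498 had an exonic cluster of an IGF2BP3 library nevertheless (41.1%), and 163 had a site listed by both bio2 libraries (13.4%).

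Genes with IGF2BP3 sites alone rested on 1 site each, except NPNT, which encodes the extracellular matrix protein nephronectin and had 2. Of the 68 genes, 53 had an exonic cluster of an IGF2BP1 library (77.9%), which leaves 15 with none, and 26 had a site in both bio2 libraries (38.2%). Both NPNT sites had an IGF2BP1 cluster and neither was in both bio2 libraries. With 67 genes tied at 1 site, the others named follow the alphabet: AP5M1, ATIC, BUB1, CASK, CENPE, CHD4 and CHMP3. Coding sites were listed in ATIC (purine synthesis), BUB1 (spindle checkpoint), CENPE (a kinetochore motor) and CHD4 (a chromatin remodeller). The ATIC, BUB1 and CHMP3 sites were in both bio2 libraries, and no IGF2BP1 library had a cluster at the sites of CASK and CHMP3.

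Gene function was read from 21 lists, each set against the 59.3% of all site-bearing genes that carried sites of both proteins. All 16 oncofetal and let-7 target genes with a site were genes of both proteins, with 44 shared, 42 IGF2BP1-only and 1 IGF2BP3-only site. They included HMGA2, PEG10 (7 shared and 11 IGF2BP1-only sites), LIN28B with 1 shared site, IGF2BP1 (3 shared and 6 IGF2BP1-only) and IGF2BP2 (3 shared). Chromatin genes stood at 21 of 24 (87.5%), among them KMT2D, a histone methyltransferase, with 4 shared and 4 IGF2BP1-only sites. The exonic sites of this list were 36 shared, 21 IGF2BP1-only and 8 IGF2BP3-only, against 2745, 3531 and 128 over all protein-coding genes. Amino acid transporters stood at 9 of 11 (81.8%), with SLC38A2 at 4 and 5 sites.

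Liver plasma protein genes stood at 11 of 15 (73.3%) with a site, out of 33 on the list. Beside APOB, FN1 had 4 shared, 3 IGF2BP1-only and 1 IGF2BP3-only site and SERPINA1 had 4 shared and 3 IGF2BP1-only, while AFP and APOH had 1 IGF2BP1-only site each. Genes of insulin and IGF signalling were likewise at 11 of 15, with IGF1R, the receptor, at 2 shared and 2 IGF2BP1-only sites. IGFBP1 and AKT2 had IGF2BP1 sites alone. Cholesterol and fatty acid genes were at 13 of 18 (72.2%), led by SCD with 8 shared and 4 IGF2BP1-only sites.

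Other lists stood nearer to the background or below it. Cytosolic ribosomal protein genes were at 9 of 15 (60%), m6A and m7G machinery genes at 8 of 12 (66.7%), and cell cycle genes at 8 of 14 (57.1%). In the machinery list QKI had 1 shared and 5 IGF2BP1-only sites, and METTL14, a subunit of the m6A methyltransferase, 1 IGF2BP1-only site. Zinc finger genes of the ZNF family, the largest list, were at 54 of 112 (48.2%), with 54 of IGF2BP1 alone and 4 of IGF2BP3 alone (3.57%, against 2.16% of all site-bearing genes). Chaperone genes were at 6 of 16 (37.5%), with HSPA4L at 1 shared and 6 IGF2BP1-only sites. Collagen, laminin and integrin genes had a site in 4 of 79, and 1 of the 4 was of both proteins.

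IGF2BP3-only genes were few in every list, against a background of 2.16% of all site-bearing genes. Outside the ZNF family each list with any held 1 such gene. On that 1 gene the shares were 4.17% of chromatin, 7.14% of cell cycle and 8.33% of MAP kinase genes with a site. The share was 11.1% each for microRNA pathway genes and for SRSF and HNRNP genes. The IGF2BP3-only genes were BUB1 in the cell cycle list, CHD4 in the chromatin list, DGCR8 (the partner of DROSHA in microRNA processing), HNRNPA0, MAPK1IP1L in the MAP kinase list, and ZNF250, ZNF585A, ZNF770 and ZNF827. The other 15 lists held none. No difference between lists was tested.

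**Figure D5:**
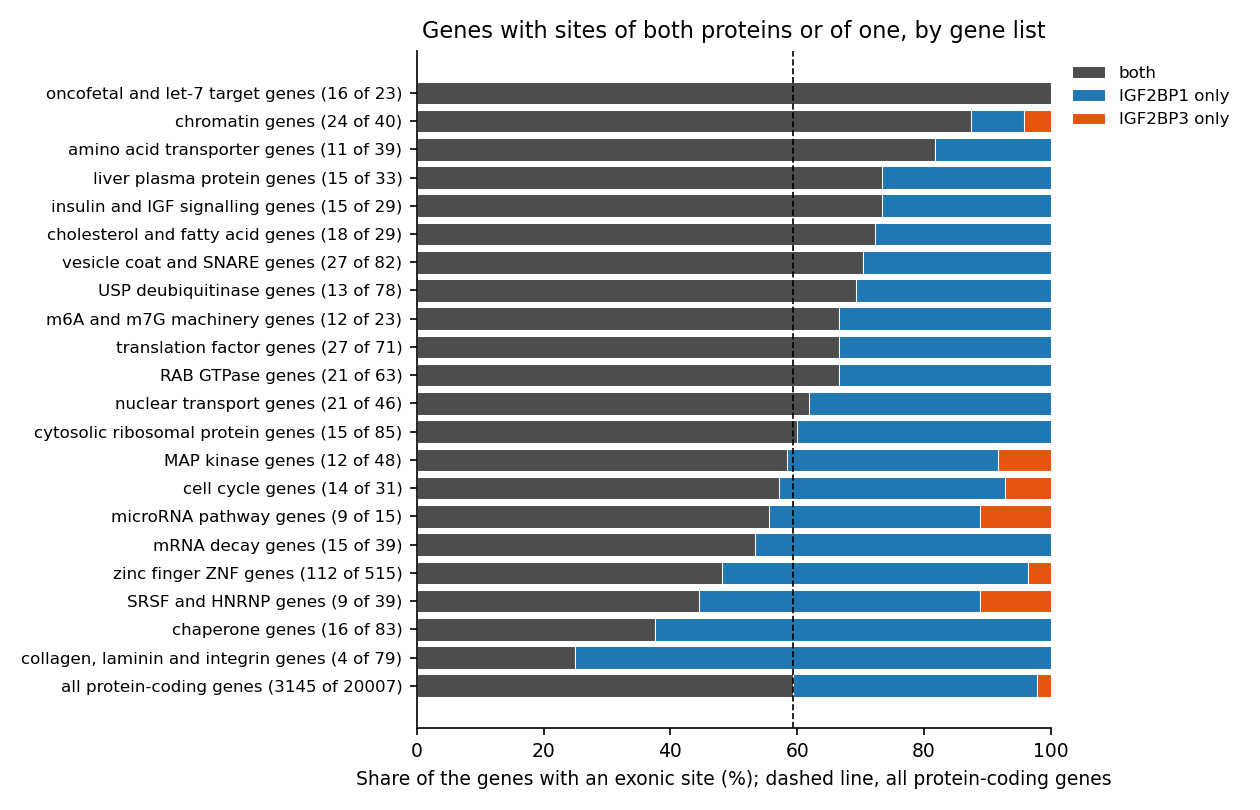
Share of genes (%, x axis) with exonic sites of both proteins, of IGF2BP1 alone and of IGF2BP3 alone among the genes of each list that have a site, whose number and list size stand in brackets. The dashed line marks the share of both among all 3145 site-bearing genes, 59.3%, and lists run from 100% for oncofetal genes to 25% for collagen, laminin and integrin genes, the latter with 4 genes.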

How the data were processed

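Per the labels and the study's methods, the authors filtered, clipped and collapsed reads with the FASTX toolkit, used bowtie for mapping and PARalyzer for cluster calling, library by library; tool versions are not given in the sources used here. The deposited files hold no counts but other values, namely the start and end of 1 cluster a line, with no score or read number, so depth is unknown. The submitters' processing notes name hg38. Starts were read as counted from 1.

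Clusters were merged by strand, and midpoints were annotated with GENCODE 44 in the order coding sequence, 3' UTR, 5' UTR, other exon and intron. Sequence was read from hg38. Wilson and Newcombe intervals are at 95%. For library measures the test was an exact two-sided permutation test, with Benjamini-Hochberg adjustment over 8 measures and a threshold of 0.05. Of 6404 exonic sites, 55 lay in more than 1 gene. Python 3.11.15, scipy 1.17.1, pysam 0.24.0 and bedtools 2.31.1 were used, and the code was tested on simulated data. No per-sample column was left unmapped.

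Named genes were, per class, the 8 with the most exonic sites (one-sided classes among genes with no site of the other protein), and up to 4 IGF2BP3-only and 2 other members per list. Genes of the sites found in 4 IGF2BP3 libraries and of introns, and LIN28B, IGF2BP1, IGF2BP2 and SERPINA1, were chosen after their values were seen. The members and lists were chosen with earlier results of these data known. Alternatives left out each library, changed the overlap, the number of libraries, the meaning of one-sided, the copy number, contigs, annotation order and window, paired the replicate numbers or used the bio2 libraries. The labels do not say whether replicates were separate cultures, so p-values measure the spread between these libraries, which may be technical.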

Additional observations from a re-analysis of the deposited data

How the results depend on the processing

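Leaving out 1 library at a time, so that a side was its other library alone, moved the one-sided sets. IGF2BP3-only sites numbered 190 to 1167 (lowest without IGF2BP1 replicate 1, highest without IGF2BP3 replicate 1), IGF2BP1-only sites 5051 to 11032, genes of IGF2BP1 alone 931 to 1899 and genes of IGF2BP3 alone 25 to 173. Between the one-sided classes, IGF2BP3-only minus IGF2BP1-only, the 3' UTR difference was -26.5 to -23.2 points and the CAU difference 20.8 to 31.3 points. The recurrence difference was 5.63 to 19.4 points in bio2 replicate 1 and 5.09 to 18.9 in replicate 2. With 1 library sufficing for a site, there were 7508 shared, 11841 IGF2BP1-only and 746 IGF2BP3-only sites, and these differences were -22.8, 31.5, 7.25 and 7.78 points. With one-sided taken as no cluster of the other protein, there were 101 IGF2BP3-only sites and 20 genes, and the differences were -31.9, 33.1, 19.2 and 19.01 points. Single-copy sites left 3663 IGF2BP1-only sites and a CAU difference of 19.4 points. In none of these alternatives did the 4 differences change sign. The intron difference was 15.6 to 20.5 points over the libraries left out, and 18.99 without the intron sites of genes that hold ribosomal RNA genes, an alternative chosen after seeing the data.

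Of the library measures, IGF2BP1 minus IGF2BP3, GGAC turned from 1.11 to -1.66 points with the bio2 libraries in place of the IGF2BP3 libraries and to -0.275 with them beside, and U content ranged from -0.550 to 0.0469 points over the libraries left out. With the replicate numbers as a block, the CAU difference stayed at -12.6 points with an exact sign-flip p = 0.5, the smallest that pairing 2 with 2 allows. The labels do not say that a number marks a shared culture. The causes of these shifts were not tested. The files hold neither read counts nor scores, so weak and strong clusters could not be separated, and a missing cluster is not a lack of binding.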
